A study of Mus musculus with 12 samples.

Results

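The genes described here are 10 targets of cytokine signaling in CD8+ tumor-infiltrating T cells: Cish, Socs1, Socs2, Socs3, Pim1, Pim2, Pim3, Dusp5, Dusp6 and Osm. They were taken by symbol from a table of 52636 genes, and all 10 passed the filter on low counts, as did 14173 genes in all. The 12 libraries were 3′ RNA-sequencing libraries (QuantSeq, which reads the 3′ ends of transcripts) of CD8+ T cells sorted at day 21 from subcutaneous AT3ova tumors, an ovalbumin-expressing mammary carcinoma line, in female A2AR eGFP reporter mice on a C57BL/6 background aged 6 to 16 weeks. Cells were sorted as GFP+ or GFP− from mice that were either non-treated or given anti-PD-L1 on days 14 and 18, which makes 4 groups of 3 libraries, each library pooled from 3 mice. The labels and the study's legend do not give the same number of GFP+ samples, and all libraries that the labels place in a group were used. All groups carried the reporter, a bacterial artificial chromosome in which the regulatory sequences of Adora2a, the gene of the adenosine receptor A2AR, drive eGFP, so GFP marks the activity of a transgene and not the receptor itself. The study asked how A2AR+ CD8+ T cells in tumors differ from A2AR− cells, with STAT5 target genes among its interests, and the comparisons below were GFP+ against GFP−, anti-PD-L1 against non-treated, and whether each depended on the other.

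Cytokines of the common gamma chain family, such as IL-2, IL-7 and IL-15, activate JAK kinases on their receptors, and these phosphorylate STAT5. STAT5 then enters the nucleus as a dimer and binds a short palindrome at target genes, among which are genes whose products restrain the same pathway. CIS, the product of Cish, and the SOCS proteins bind activated receptors or JAKs through SH2 domains and limit further signaling, and in CD8+ T cells CIS also restrains signaling from the T cell receptor. PIM kinases promote survival and growth, DUSP5 and DUSP6 dephosphorylate the MAP kinase ERK, and oncostatin M, the product of Osm, is a secreted cytokine of the IL-6 family. Socs1 and Socs3 are also induced through other STATs, so a level of any of these genes is not a direct measure of STAT5.

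The promoter windows that hold a STAT palindrome are shown first, because Cish carries one of the differences described below and Socs3 did not share it. RefSeq promoters (GRCm38.p6, 250 bases before to 50 after the transcript start) were at hand for 8 of the 10 genes, and those of Socs2 and Osm were not among them. The windows were searched for TTCNNNGAA, in which N is any base and which reads the same on both strands, and it was found in Cish and Socs3 and not in the windows of Socs1, Pim1, Pim2, Pim3, Dusp5 and Dusp6. Of all 32851 promoters in the table, 8.3% held the motif and 0.457% held it 2 or more times. Below are the windows at chr9:107296409-107296708 on the plus strand (Cish, 2 matches) and at chr11:117969317-117969616 on the minus strand (Socs3, 1 match), 5′ to 3′ along the gene, with the matches in capitals. A match is a description of the sequence and was not tested for binding.
Cish: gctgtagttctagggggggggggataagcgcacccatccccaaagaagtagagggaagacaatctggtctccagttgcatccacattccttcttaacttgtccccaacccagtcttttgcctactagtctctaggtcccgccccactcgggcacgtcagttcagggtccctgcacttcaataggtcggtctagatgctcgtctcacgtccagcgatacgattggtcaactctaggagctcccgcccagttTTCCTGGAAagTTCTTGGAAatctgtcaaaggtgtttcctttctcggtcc
Socs3: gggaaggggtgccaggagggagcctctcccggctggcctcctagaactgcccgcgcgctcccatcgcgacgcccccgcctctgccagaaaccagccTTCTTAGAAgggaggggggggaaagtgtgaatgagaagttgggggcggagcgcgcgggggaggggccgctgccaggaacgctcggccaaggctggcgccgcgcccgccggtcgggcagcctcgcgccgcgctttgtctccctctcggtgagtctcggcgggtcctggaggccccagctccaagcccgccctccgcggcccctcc
In Cish, TTCCTGGAA and TTCTTGGAA began at bases 251 and 262 of the window, at and just after the RefSeq start. TTCTTAGAA in Socs3 began at base 97, which is 154 bases before the RefSeq start of that gene. Both windows lie inside the gene coordinates given below, which come from GENCODE and begin farther upstream, so these distances hold for the RefSeq starts only.

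Total counts ranged from 11292699 to 19023900 per library. As a check of the sort, Adora2a was 60.2 to 67.3 CPM (read counts scaled to a common library size, normalized by TMM) in non-treated GFP+ libraries against 19.7 to 24.3 in GFP− libraries, and 66.3 to 111 against 26.0 to 34.6 after anti-PD-L1. Its log2 fold change over both treatments was 1.52 (SE 0.138, adjusted p = 0.000365, edgeR's quasi-likelihood test). Cd8a was at least 799 CPM in every library and Cd4 at most 0.919 CPM. Cd40lg and Foxp3, listed with Cd4 as CD4 T cell markers, were at 0.367 to 2.64 and 6.44 to 24.9 CPM. Libraries KT13 (non-treated GFP+) and KT21 (anti-PD-L1 GFP+) stood apart from the rest, with a median Spearman correlation with the other libraries of 0.941 and 0.935 against 0.967 to 0.977 for the remaining 10. The main results are therefore given also over the 10 libraries without both.

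Of the receptor-proximal inhibitors, Cish and Socs2 were lower in GFP+ cells, in every library and under both treatments. Socs2 was called (adjusted p under 0.05) and fell by 41.3% in GFP+ cells over both treatments, while Cish, at 0.651 of its GFP− level, just missed the threshold when all 12 libraries were used. Socs1 was lower in value, and Socs3 depended on which libraries were used. No member was called for anti-PD-L1 against non-treated or for the interaction.

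Cish, which encodes CIS (chromosome 9, 107296026 to 107302784, plus strand, GRCm38), was at 419, 466 and 411 CPM in the non-treated GFP− libraries and at 273, 326 and 263 CPM in the non-treated GFP+ libraries. After anti-PD-L1 it was at 362, 430 and 463 CPM in GFP− and at 271, 205 and 324 CPM in GFP+ libraries. All 6 GFP+ libraries therefore lay below all 6 GFP− libraries, with the highest GFP+ library at 326 CPM and the lowest GFP− library at 362 CPM. The group means were 432 ± 29.3 and 418 ± 51.5 CPM (SD, n = 3) in non-treated and treated GFP− cells, and 287 ± 34.2 and 267 ± 59.5 CPM (SD, n = 3) in GFP+ cells. The GFP+ and GFP− means were separated by more than these SDs, whereas the treated and non-treated means within each GFP group were not. GFP+ against GFP− came to -0.62 on the log2 scale over both treatments (SE 0.125, adjusted p = 0.0538, edgeR's quasi-likelihood test over 14173 genes), so Cish was not called with all 12 libraries. Without KT13 and KT21 it was -0.52 (SE 0.0921, adjusted p = 0.00312) and was called. It was also called with KT21 alone left out (adjusted p = 0.0423) or KT23 alone (adjusted p = 0.0353), and in no other fit that left out 1 library. An exact permutation test of log2 CPM, two-sided and with labels exchanged within treatments, gave p = 0.005, the smallest that its 400 relabellings allow.

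Socs2, an SH2 protein best known for restraining growth hormone signaling (chromosome 10, 95385362 to 95417180, minus strand), was at 36.1, 37.2 and 49.5 CPM in non-treated GFP− libraries and at 22.7, 25.5 and 25.5 CPM in non-treated GFP+ libraries. After anti-PD-L1 it was at 41.4, 44.8 and 42.7 CPM in GFP− and at 22.7, 24.5 and 26.8 CPM in GFP+ libraries. Again all 6 GFP+ libraries lay below all 6 GFP− libraries, and here KT13 and KT21 were close to the other GFP+ libraries. Over both treatments edgeR fitted a log2 fold change of -0.77 with an SE of 0.118 and an adjusted p of 0.0118, and -0.74 (SE 0.124, adjusted p = 0.00194) without KT13 and KT21. The call was lost when KT18, KT22 or KT24, all GFP− libraries, was left out alone (adjusted p = 0.0527, 0.0657 and 0.0613), with log2 fold changes of -0.69, -0.74 and -0.76. The exact permutation p was 0.005, again the smallest possible.

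Within single treatments neither gene was called by edgeR. Socs2 differed by a log2 value of -0.74 (SE 0.167, adjusted p = 0.313) in non-treated and -0.80 (SE 0.167, adjusted p = 0.209) in treated cells, and for Cish it was -0.59 (SE 0.177, adjusted p = 0.562) and -0.65 (SE 0.177, adjusted p = 0.567). DESeq2 called Socs2 in both, with adjusted p = 0.0309 and 0.0124. The interaction, which tests whether the GFP difference depended on anti-PD-L1, was -0.06 (SE 0.249) for Cish and -0.06 (SE 0.235) for Socs2 on the log2 scale, both with an adjusted p of 0.9999, so a difference between treatments was not detectable at these standard errors.

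**Figure D1:**
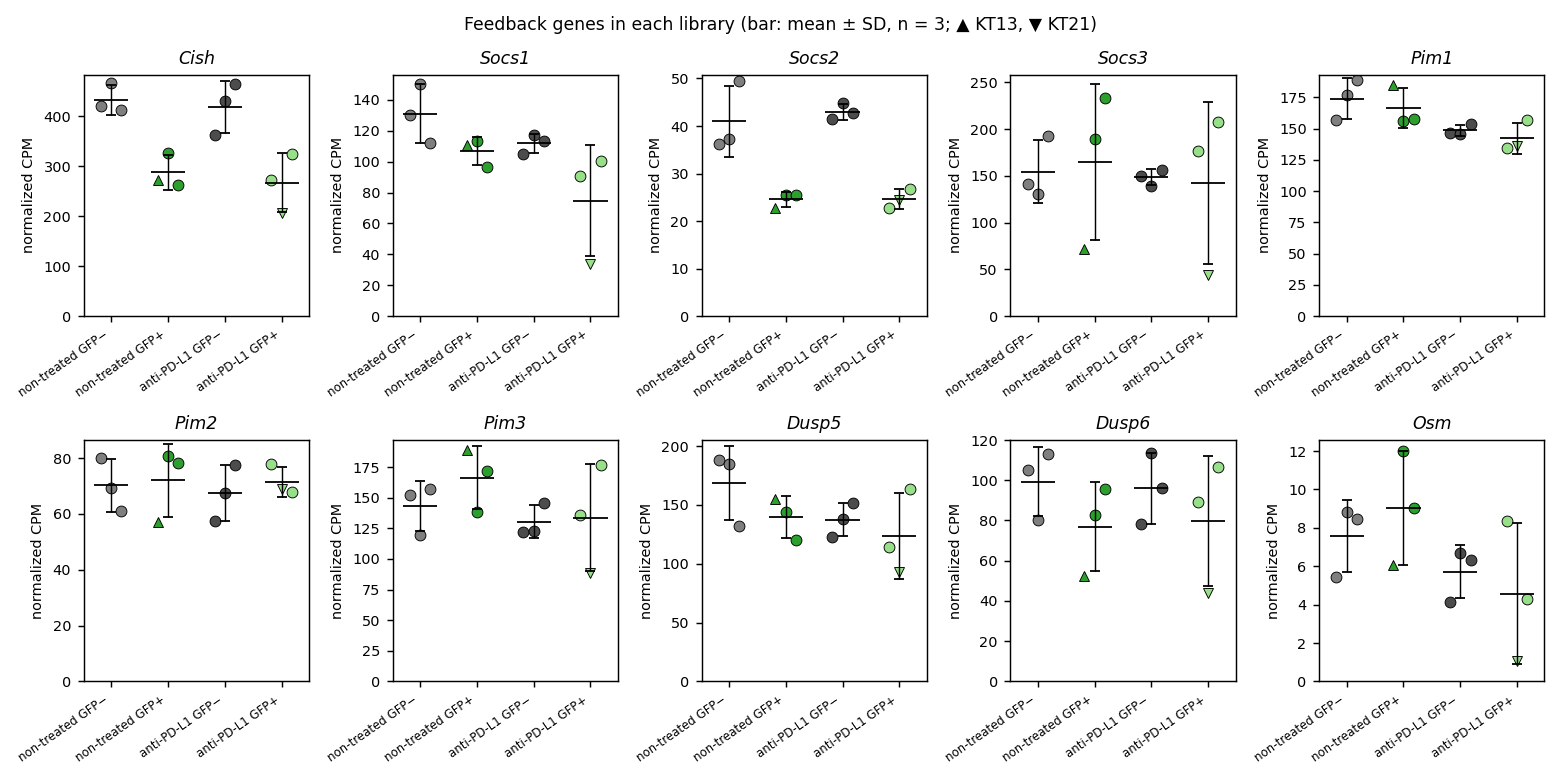
Normalized CPM (y axis, from 0) of each feedback gene in the 12 libraries by group (x axis), with 1 point per library and the mean ± SD (n = 3) as bars, KT13 as an upward and KT21 as a downward triangle. Cish and Socs2 points of GFP+ cells lie below all GFP− points (at most 326 against at least 362 CPM, and at most 26.8 against at least 36.1 CPM), while Socs3 spreads from 44.1 to 233 CPM within GFP+ cells.

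Such a separation of 6 libraries from 6 was found for 0.967% of the 14173 genes, and for 2 of the 10 members, both lower in GFP+ cells. Without KT13 and KT21 the same 2 members were apart among the remaining 4 and 6 libraries, where 2.48% of genes were. At the threshold of adjusted p, 0.310% of genes were called over both treatments with all 12 libraries and 1.08% with 10, against 1 and 2 of the 10 members. In non-treated cells alone 0.00706% of genes were called with 12 and 0.339% with 10 libraries, and in treated cells 0.0282% and 0.170%, with no member called in either by edgeR, although 2 members were under an unadjusted p of 0.05 in each with 12 libraries, as were 6.05% and 4.08% of all genes. With 10 libraries 5 and 3 members were, beside 9.24% and 5.34% of genes. DESeq2 called 1 member in each, among 53 and 47 genes called, and voom none, among 12 and 20. With 3 libraries against 3, libraries did not overlap for Cish and Socs2 in non-treated cells, where 12.8% of genes were apart, and for Cish, Socs1 and Socs2 in treated cells, where 10.6% were. Without KT13 and KT21 these members were still apart, all lower in GFP+ cells. Osm in non-treated and Socs3 in treated cells were then apart too, both higher in GFP+ cells, where 25.2% and 22% of genes were. The median log2 fold change of the 10 members over both treatments was -0.14 with 12 libraries and -0.08 without KT13 and KT21, beside 0.00 for all genes tested in either set.

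Socs1, which binds JAKs and is a strong inhibitor of interferon and common gamma chain signaling (chromosome 16, 10782240 to 10785536, minus strand), was at 130, 151 and 112 CPM in non-treated GFP− and at 111, 113 and 96.3 CPM in non-treated GFP+ libraries. After anti-PD-L1 it was at 105, 117 and 114 CPM in GFP− and at 90.6, 33.7 and 100 CPM in GFP+ libraries. The groups overlapped slightly in non-treated cells and did not overlap in treated cells, where KT21 was at 29.8% of the mean of the 10 other libraries. Over both treatments Socs1 came to a log2 value of -0.44 (SE 0.204, adjusted p = 0.609, edgeR) with 12 and -0.28 (SE 0.0978, adjusted p = 0.255) with 10 libraries, and was not called in either. The exact permutation p was 0.01 with 12 libraries and 0.03 with 10, before any correction for the 10 members tested.

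Socs3, the inhibitor of signaling through gp130, the shared receptor of IL-6 and oncostatin M (chromosome 11, 117966079 to 117970047, minus strand), was at 141, 130 and 193 CPM in non-treated GFP− and at 71.7, 189 and 233 CPM in non-treated GFP+ libraries. After anti-PD-L1 it was at 150, 140 and 156 CPM in GFP− and at 177, 44.1 and 207 CPM in GFP+ libraries. The low GFP+ values were KT13 and KT21, at 41.8% and 25.7% of the mean of the other 10 libraries, and the remaining 4 GFP+ libraries, at 177 to 233 CPM, included the highest of all. Over both treatments Socs3 came to a log2 value of 0.02 (SE 0.322, adjusted p = 0.995, edgeR) with 12 libraries and 0.41 (SE 0.104, adjusted p = 0.0598) with 10, and was called in neither. In the mean difference of log2 CPM the direction itself turned, from -0.19 to 0.41 (exact permutation p = 0.65 and 0.04). Among these 10 libraries, GFP+ cells thus had lower values of Cish and Socs2 and higher values of Socs3, of which only Cish and Socs2 were called.

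**Figure D2:**
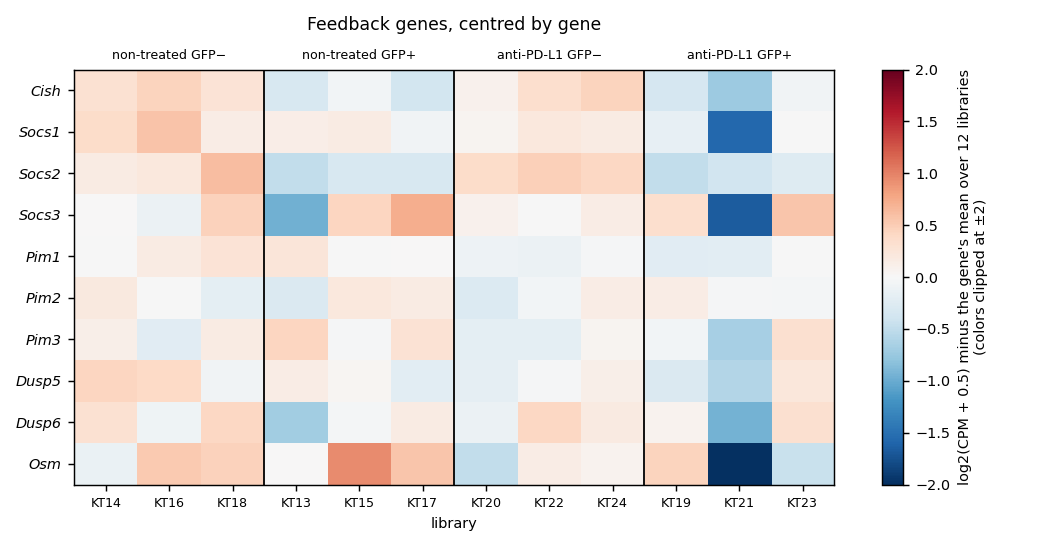
log2(CPM + 0.5) of each feedback gene (rows) in each library (columns, ordered by group), minus the gene's mean over the 12 libraries, with red above and blue below the mean and colors clipped at 2 log2 units either way. Cish and Socs2 are blue across the 6 GFP+ libraries, whereas the low values of Socs1 and Osm in KT21 and of Socs3 and Dusp6 in KT13 and KT21 stand in those libraries.

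No PIM kinase was called between GFP+ and GFP− cells. Pim1 was between 135 and 189 CPM, Pim2 between 57.0 and 80.7 CPM and Pim3 between 89.0 and 189 CPM over the 12 libraries, and the 6 GFP+ libraries overlapped the 6 GFP− libraries for all 3 genes. Their log2 fold changes over both treatments were -0.06 (SE 0.1002) for Pim1, 0.06 (SE 0.125) for Pim2 and 0.13 (SE 0.156) for Pim3, with adjusted p of at least 0.863 (edgeR), and without KT13 and KT21 they were -0.09, 0.14 and 0.19, with adjusted p of at least 0.579. The lowest library of Pim3 was KT21 and the highest was KT13.

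Pim1 (chromosome 17, 29490753 to 29496112, plus strand) was the member with the smallest p for anti-PD-L1 over both GFP groups with all 12 libraries, a place that Osm took without KT13 and KT21. It was at 157, 176 and 189 CPM in non-treated and 146, 145 and 154 CPM in treated GFP− libraries, and at 185, 156 and 158 CPM in non-treated and 135, 136 and 157 CPM in treated GFP+ libraries. The GFP− libraries did not overlap between treatments, while among GFP+ libraries the highest treated library, at 157 CPM, lay just above the lowest non-treated one, at 156 CPM. With RLE or upper-quartile scaling in place of TMM this overlap was absent, and all 6 treated libraries were below all 6 non-treated ones. Over both GFP groups Pim1 came to -0.23 on the log2 scale (SE 0.1003, unadjusted p = 0.0405, adjusted p = 0.625, edgeR), and Pim1 was not called. Without KT13 and KT21 it came to -0.17 (SE 0.0860, unadjusted p = 0.0647, adjusted p = 0.487). The exact permutation p, with labels exchanged within GFP groups, was 0.01 with 12 libraries and 0.0333 with 10. Separation of the 3 treated from the 3 non-treated GFP− libraries was seen for 12.3% of genes, so a single member of 10 was close to that share.

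The phosphatases also overlapped between GFP groups. Dusp5, a nuclear phosphatase of ERK (chromosome 19, 53529109 to 53542431, plus strand), was between 92.7 and 164 CPM in GFP+ and between 123 and 188 CPM in GFP− libraries, a fitted log2 difference of -0.21 (SE 0.149, adjusted p = 0.746, edgeR). Dusp6, its cytoplasmic counterpart (chromosome 10, 99263231 to 99267489, plus strand), was between 44.0 and 106 CPM in GFP+ and between 78.3 and 113 CPM in GFP− libraries, a fitted log2 difference of -0.32 (SE 0.207, adjusted p = 0.727) that came to -0.07 (SE 0.115) without KT13 and KT21. These libraries were at 54.8% and 45.9% of the mean of the other 10 for Dusp6. Neither gene was called in any of the 7 contrasts.

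Osm, the only cytokine among the members (chromosome 11, 4236420 to 4241026, plus strand), was the least counted of them, at 1.06 to 12.03 CPM. It was at 5.45, 8.83 and 8.45 CPM in non-treated and 4.12, 6.70 and 6.34 CPM in treated GFP− libraries, and at 6.05, 12.03 and 9.03 CPM in non-treated and 8.37, 1.06 and 4.30 CPM in treated GFP+ libraries. The treated libraries tended to the lower values but overlapped the non-treated ones in both GFP groups, and KT21, at 14 counts, was at 14.4% of the mean of the other 10. Anti-PD-L1 against non-treated came to a log2 value of -0.69 (SE 0.367, adjusted p = 0.733, edgeR) with 12 and -0.57 (SE 0.249, unadjusted p = 0.0328, adjusted p = 0.380) with 10 libraries, and was not called.

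For anti-PD-L1 against non-treated, 8 of the 10 members had a lower value over both GFP groups, with a median log2 fold change of -0.18 beside -0.01 for all genes tested. This median was -0.09 without KT13 and KT21. No member was called by edgeR, 1 was under an unadjusted p of 0.05 (Pim1 with 12 libraries, where 7.67% of genes were, and Osm with 10, where 11.2% were), where edgeR called 0.395% of all genes with 12 and 1.36% with 10 libraries. DESeq2 and voom called no member among 181 and 132 genes called. In GFP+ cells alone 0.0141% and 0.563% of genes were called, in GFP− cells 0% and 0.373%, and for the interaction 0% in both, with no member called in any and none under an unadjusted p of 0.05 with 12 libraries. Of all genes 6.74%, 3.44% and 2.08% were under that p in these 3 contrasts. With 10 libraries 1 member was, Pim1 in GFP− cells (unadjusted p = 0.0488, edgeR), where 7.22% of genes were. Libraries did not overlap for 0 of the 10 members over both GFP groups, where 0.840% of genes were apart, and for 0 in GFP+ cells, where 10.3% were. Over both GFP groups Cish was at -0.08 (SE 0.125) and Socs2 at 0.04 (SE 0.117) on the log2 scale, smaller than their GFP differences.

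**Figure D3:**
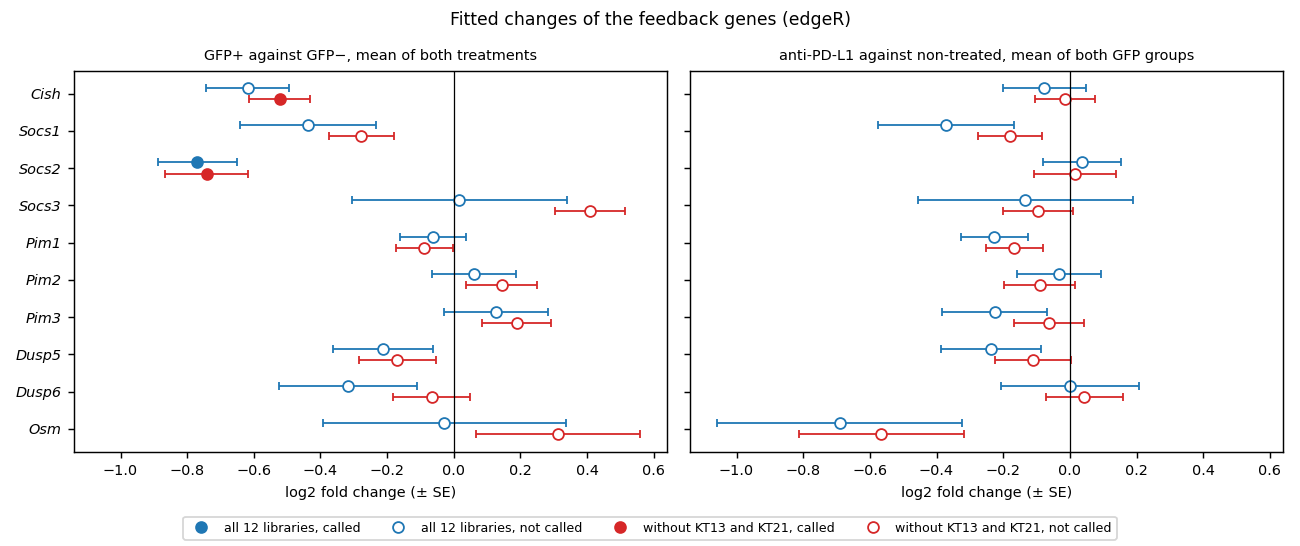
Fitted log2 fold changes (x axis) ± SE of the feedback genes (y axis) for GFP+ against GFP− (left) and anti-PD-L1 against non-treated (right), with all 12 libraries in blue and without KT13 and KT21 in red, and filled points called at an adjusted p under 0.05. Socs2 is filled in both sets at -0.77 and -0.74, Cish only in the smaller one at -0.52, Socs3 moves from 0.02 to 0.41, and no point is filled on the right.

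The GFP comparison moved with some markers of other cells. The summed level of 5 NK cell markers (Ncr1, Klrb1c, Fcer1g, Tyrobp, Eomes) was 188 to 262 CPM in GFP+ and 97 to 158 CPM in GFP− libraries, with 3 of 5 called higher. Ncr1, a defining receptor of NK cells, was at 3.29 to 6.65 CPM in GFP+ and 1.21 to 5.84 CPM in GFP− libraries. The macrophage, dendritic cell, fibroblast and tumor or epithelial lists had median log2 fold changes of 0.34, 0.275, 0.50 and 0.39 for GFP+ against GFP−, with none of their genes called. Sums of the tumor or epithelial list ran the other way, at 135 to 302 CPM in GFP+ and 201 to 324 CPM in GFP− libraries. After anti-PD-L1 these sums were 135 to 198 and 201 to 305 CPM. They were mostly Cdh1, at 126 to 272 CPM in GFP+ and 191 to 296 CPM in GFP− libraries of both treatments. No other gene of that list was above 16.8 CPM in any library. The CD4 T cell list was at -0.218 with none of 2 tested called. For the B cell and neutrophil lists, with 1 gene tested each, it was 0.586 and 0.328, neither called. The sum of 8 CD8 T cell markers was 4180 to 4550 CPM in non-treated GFP+ and 4890 to 4990 CPM in non-treated GFP− libraries, and after anti-PD-L1 it was 4950 to 6400 and 5470 to 5820 CPM, which overlap, with none of 8 called in GFP+ against GFP− over 12 libraries and 2 lower over 10. Between treatments, 14 macrophage and monocyte markers summed to 366 to 478 CPM in non-treated and 252 to 376 CPM in treated libraries, with 2 of 13 tested called lower. The NK list had a median log2 fold change of -0.335 for anti-PD-L1 with 1 of 5 called lower, the dendritic cell list -0.71 with none of 3 tested called, and the fibroblast list -2.09 with none of 5, at sums of up to 71.4 CPM in non-treated and up to 15 CPM in treated libraries. The tumor or epithelial list was at -0.766 with none of 4 tested called, and at -0.919 with 10 libraries. The CD4 T cell list was at -0.453 with none of 2 tested called. The B cell and neutrophil lists had 1 gene tested each, at -0.172 and -1.23, neither called. With 10 libraries 4 macrophage, 1 dendritic cell and 1 fibroblast marker were called lower after anti-PD-L1. The CD8 list had a median of 0.24, with none of 8 called with 12 libraries and 2 higher with 10. The part of these cells in the results was not tested, and in sorted bulk samples fewer cells of a type and less RNA per cell cannot be told apart.

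Upstream of the feedback genes, Il7r, the alpha chain of the IL-7 receptor, was called lower in GFP+ cells. It was at 70.6, 75.6 and 73.3 CPM in non-treated GFP− and at 48.9, 47.6 and 50.3 CPM in non-treated GFP+ libraries, and after anti-PD-L1 at 106, 94.4 and 97.9 CPM in GFP− and at 62.8, 69.8 and 60.4 CPM in GFP+ libraries. All GFP+ libraries were below all GFP− libraries of either treatment, and within each GFP group every treated library was above every non-treated one. GFP+ against GFP− came to a log2 value of -0.60 (SE 0.0938, adjusted p = 0.0131, edgeR), and this call was lost when any of KT16, KT18, KT20, KT22 and KT24, all GFP−, was left out alone, with adjusted p from 0.0514 to 0.0837. For anti-PD-L1 it was 0.42 (SE 0.0936, adjusted p = 0.0893, edgeR) with 12 libraries and 0.39 (SE 0.0919, adjusted p = 0.0316) with 10. DESeq2 (0.42, adjusted p = 0.00382) and voom (0.38, adjusted p = 0.0311) called this rise with all 12 libraries. No edgeR fit that left out 1 library did. Il7r was the only one of 8 tested genes of the STAT5-activating receptors called by edgeR with 12 libraries and the filter on low counts. Il2rb, the beta chain shared by the IL-2 and IL-15 receptors, was higher after anti-PD-L1 at 0.27 (SE 0.0686, adjusted p = 0.0477) with 10 libraries, and at 0.22 (SE 0.0908, adjusted p = 0.570) with 12 it was not called.

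None of the 11 JAK and STAT genes was called by edgeR, with the filter on low counts, in any comparison with either set of libraries. With 12 libraries the smallest p for anti-PD-L1 was that of Jak3, the kinase of the common gamma chain (0.48 on the log2 scale, SE 0.163, adjusted p = 0.389, edgeR), which was at 0.31 (SE 0.131, adjusted p = 0.360) with 10. Stat5a and Stat5b, the factors themselves, were at 0.11 (SE 0.128) and 0.01 (SE 0.113) for GFP+ against GFP−.

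Other genes that STAT5 can induce did not move one way. None of 12 was called by edgeR with 12 libraries and the filter on low counts. Of these genes 8 had a higher and 4 a lower value in GFP+ cells, and their median log2 fold change was 0.06 beside -0.14 for the members. Over the 10 libraries without KT13 and KT21, 6 had a higher and 6 a lower value, and the medians were -0.02 and -0.08. Without KT13 and KT21, Myc, the growth regulator, was called higher in GFP+ cells at 0.87 (SE 0.190, adjusted p = 0.0189) and Id2, a repressor of E proteins that effector cells need, was called lower at -0.54 (SE 0.126, adjusted p = 0.0307). With all 12 libraries they were at 0.67 (SE 0.262, adjusted p = 0.515) and -0.60 (SE 0.171, adjusted p = 0.275). Without a filter beyond 1 count, edgeR called Id2 with all 12 (-0.60, adjusted p = 0.00176). Id2 was also higher after anti-PD-L1, at 0.65 (SE 0.125, adjusted p = 0.00487) with 10 libraries and 0.50 (SE 0.171, adjusted p = 0.395) with 12. Over all 12 this rise was called by edgeR without a filter beyond 1 count (0.51, adjusted p = 0.0196) and by voom (0.67, adjusted p = 0.0265). Lif, a cytokine of the same family as oncostatin M, was at 0.796 to 3.52 CPM in non-treated and 0.379 to 0.723 CPM in treated libraries, and its fitted change of -1.92 (SE 0.488, adjusted p = 0.170) was not called by edgeR, whereas DESeq2 called it (adjusted p = 0.00924).

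With the filter on low counts, edgeR called none of the 15 other inhibitors of JAK and STAT signaling in any comparison or library set. With 12 libraries Socs4 had the smallest p for GFP over both treatments (-0.31, SE 0.207, adjusted p = 0.728, edgeR), a value that was -0.09 (SE 0.146) with 10. Sh2b3, an adaptor that restrains JAK2, had the smallest p for anti-PD-L1 (-0.50, SE 0.170, adjusted p = 0.398), and was at -0.56 (adjusted p = 0.0790) with 10. Of 13 other inhibitors of MAP kinase signaling, Spry2, which restrains signaling upstream of ERK, was at 99.1 to 107 CPM in non-treated GFP+ against 63.6 to 85.7 CPM in GFP− libraries, and at 83.5 to 111 against 63.9 to 75.3 CPM after anti-PD-L1. In log2 terms this was 0.51 (SE 0.116, adjusted p = 0.108, edgeR) with 12 libraries and 0.48 (SE 0.107, adjusted p = 0.0206) with 10. By edgeR Spry2 was thus called with 10 and not with 12, nor in any fit that left out 1 library. With all 12 it was called by DESeq2 (0.52, adjusted p = 0.00719) and by voom with quality weights (0.50, adjusted p = 0.027). With 12 libraries Dusp14 had the smallest p of that list for anti-PD-L1 over both GFP groups (0.46, SE 0.195, adjusted p = 0.597), and it was at 0.40 (SE 0.197) with 10. Spry4, whose fitted value of 2.12 lies farthest out in the plot of these lists and which was singled out after its values were seen, was at 0 to 2.49 CPM and was not called (SE 1.10).

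**Figure D4:**
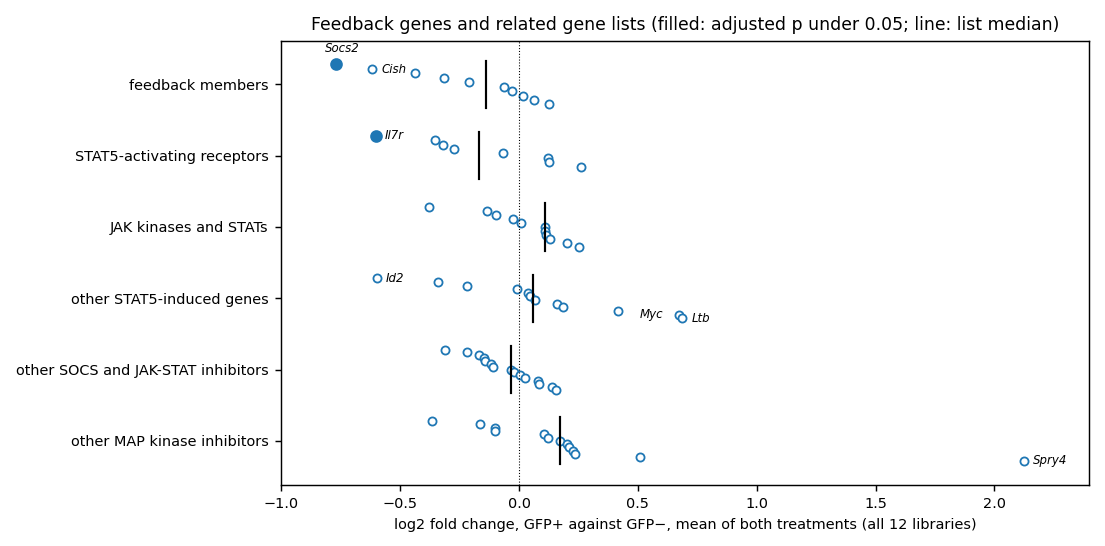
log2 fold change of GFP+ against GFP− over both treatments (x axis, all 12 libraries) for each gene of the feedback list and of 5 related lists (rows), with filled points called at an adjusted p under 0.05 and a black line at the list's median. Only Socs2 at -0.77 and Il7r at -0.60 are filled, and the medians run from -0.17 to 0.17.

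Across the 12 libraries the 5 genes whose log2(CPM + 0.5) was most like that of Cish were Gbp4 (Pearson r = 0.939), Adgrg3 (0.930), Ptgfrn (0.925), Itsn1 (0.915) and 5830411N06Rik (0.912). Without KT13 and KT21 these were at 0.932, 0.971, 0.881, 0.884 and 0.881, and of the 5 Adgrg3 alone remained among the 5 most like Cish. Among the members, Socs2 was at 0.838, Socs1 at 0.783 and Dusp5 at 0.699 with 12 libraries, and at 0.844, 0.818 and 0.627 with 10. Dusp6 went from 0.664 to 0.173, Osm from 0.458 to -0.191 and Socs3 from 0.433 to -0.759. Pim1 was at 0.358 and 0.429, Pim2 at 0.0151 and -0.269, and Pim3 at 0.116 and -0.411. These values describe libraries that share the GFP groups, their depth and the same outlying libraries, and carry no test.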

How the data were processed

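CD8+ T cells of 4 groups of 3 libraries were analysed. The authors deposited raw read counts per Ensembl gene, made by trimming with Cutadapt, alignment to mm10 with HISAT2 and counting with featureCounts (cutadapt 1.7 and Subread 1.6.4 in the submitters' processing notes), without normalization. Reads carry no molecular identifiers, so counts are not independent molecules, and strand handling is not given in the sources used here. Groups came from the sample labels, which give no batch and no pairing. Symbols from GENCODE vM21 matched 52403 identifiers, and coordinates are GRCm38 (mm10).

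Here counts were scaled by TMM and filtered by filterByExpr, and tested in 1 fit over 4 groups with edgeR 4.0.16 (R 4.3.3, quasi-likelihood F test, Benjamini-Hochberg over all genes, called under 0.05). SEs come from these fits. The 10 members, the gene lists, the set without KT13 and KT21 and the naming rule (all members, called genes of each related list or else the smallest p, and the 5 genes most like Cish) were chosen with earlier results of these data known. A result that this rule names is not reported here. Lists were described by counts and medians. Alternatives were DESeq2 1.42.0, voom with quality weights (limma 3.58.1), RLE and upper-quartile factors, other filters, 2-group fits and leaving out libraries. The fit was also run on simulated data, and the outcome of that run is not reported here. P-values measure the spread between pools of 3 mice.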

Additional observations from a re-analysis of the deposited data

How the results depend on the processing

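Counts of calls depended on the tool and on KT13 and KT21, while the direction of Cish and Socs2 in GFP+ against GFP− was lower in every fit run. In the order GFP in non-treated cells, GFP in treated cells, GFP over both, anti-PD-L1 in GFP+ cells, in GFP− cells and over both, edgeR called 1, 4, 44, 2, 0 and 56 genes with all 12 libraries. DESeq2 called 53, 47, 158, 93, 33 and 181. Without a filter beyond 1 count edgeR called 78, 49, 204, 123, 60 and 223, and 10 for the interaction. Without KT13 and KT21 it called 50, 25, 159, 83, 55 and 201, and voom with quality weights called 12, 20, 126, 52, 34 and 132. Fits of only the 2 groups compared called 0 in treated cells for GFP, 0 in GFP+ and 51 in GFP− cells for anti-PD-L1. Leaving out 1 library at a time gave 0 to 6, 0 to 7, 13 to 50, 0 to 34, 0 to 28 and 27 to 90 genes, and 0 to 0 for the interaction.

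Of the 10 members, 2 in place of 1 were called for GFP over both treatments under several alternatives. These were DESeq2, at least 10 counts in every library, no filter, without KT13 and KT21, and voom. In that order they called 158, 56, 204, 159 and 126 genes in all. DESeq2 called 1 member in each treatment, among 53 and 47 genes. Leaving out 1 library gave 0 to 2 members called over both treatments, 0 without KT18, KT22 or KT24 and 2 without KT21 or KT23. Members apart for anti-PD-L1 in GFP+ cells were 1 with RLE, 1 with upper-quartile factors (Pim1 in both) and 2 without KT13 and KT21 (Pim2 and Osm), against 0 with TMM, where 10.3%, 10.3% and 39.1% of all genes were apart. Over both GFP groups they were 1 and 1 with RLE and upper-quartile factors, where 0.811% and 0.783% were. With 1 library left out, members apart ranged from 2 to 4, 3 to 5, 2 to 2, 0 to 4, 1 to 4 and 0 to 1 in the order above, while 12.6% to 25.0%, 10.5% to 22.3%, 1.12% to 1.52%, 10.3% to 25.1%, 12.1% to 24.7% and 0.937% to 1.68% of all genes were.

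Several uncalled values changed sign. Socs3 for GFP in treated cells was 0.37 without KT13 and KT21 and 0.24 with voom, and Osm over both was 0.31 and 0.089. Dusp6 for anti-PD-L1 was -0.0197 with upper-quartile factors and -0.0090 with at least 10 counts in every library. The interaction of Cish was 0.061 without KT13 and KT21 and 0.094 with voom, and the correlation of Socs3 with Cish was -0.759 without them. With 1 library left out, Socs3 for GFP ran from -0.25 to 0.45, from -0.41 to 0.37 and from -0.16 to 0.23 in non-treated, treated and both, and Osm from -0.42 to 0.20. For anti-PD-L1, Cish ran from -0.15 to 0.0049, Socs2 from -0.0024 to 0.12, Socs3 from -0.31 to 0.083, Pim2 from -0.10 to 0.023 and Dusp6 from -0.12 to 0.15. The interaction ran from -0.21 to 0.10 for Cish and from -0.22 to 0.022 for Socs2. The cause was not tested. No paired analysis was run, because the labels do not state which GFP+ and GFP− libraries, if any, came from the same mice. The set without KT13 and KT21 in the counts of members apart and in the correlations was chosen after seeing the data.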
